A study of Mus musculus with 8 samples.

Results

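Transcripts of 10 Eph receptor genes were followed in cultured mouse neurons with and without the kinase NUAK1, namely Epha3, Epha4, Epha5, Epha6, Epha7, Epha8, Ephb1, Ephb2, Ephb3 and Ephb6. They were taken from the raw count table by symbol through their Ensembl identifiers, 10 of 32726 identifiers, and all 10 passed the filter on low counts that left 16272 tested genes. The other 4 Eph receptor genes, Epha1, Epha2, Epha10 and Ephb4, were used for context only. Poly-A RNA was sequenced in 4 libraries of Nuak1 knockout (KO) and 4 of wild-type (WT) cultures, called KO1 to KO4 and WT1 to WT4 by their labelled replicate number. All were primary neurons from mouse embryos kept 5 days in serum-free culture. The knockout is constitutive, so every cell type of a KO culture carries it, and the colony was kept on a C57Bl/6JRj background. The tissue label reads cortex or hippocampus for every library, whereas the study's text describes the cultures as cortical. Lane A held KO1, KO4, WT1 and WT3 and lane B the others. The strain labels, which are not explained, were BJ in KO1, KO2 and KO3, BO in WT1, BQ in WT3, and BK in KO4, WT2 and WT4. Thus 3 of 4 KO libraries carried a label that no WT library had.

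Eph receptors are the largest family of receptor tyrosine kinases. They bind ephrins, which are anchored in the membrane of a neighbouring cell, so that contact between cells triggers a signal in both of them. EphA receptors mostly bind the lipid-anchored ephrin-As and EphB receptors the transmembrane ephrin-Bs, with Epha4 binding both kinds. In the developing cortex they are known for growth cone repulsion, topographic mapping of axons, and, in the case of the EphBs, the assembly of excitatory synapses on dendritic spines. Bulk RNA cannot tell fewer cells of a type from less RNA per cell.

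The members differ in the part of the protein that carries out the kinase reaction. The stretches below show this, as 36 bases of the longest coding transcript of each gene in the GENCODE M1 set, 5′ to 3′. They include the most abundant EphA receptors, Ephb2 with the member most like it over this stretch, and the receptors that deviate. The 9 capital bases are the codons at the place of the HRD motif of the catalytic loop, which active protein kinases use to catalyse phosphate transfer.
Epha4: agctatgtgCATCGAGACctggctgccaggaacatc
Epha5: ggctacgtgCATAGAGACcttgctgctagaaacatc
Ephb2: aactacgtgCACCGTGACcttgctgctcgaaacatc
Ephb3: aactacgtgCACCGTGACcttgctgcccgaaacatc
Ephb6: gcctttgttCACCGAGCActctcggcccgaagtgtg
Epha10: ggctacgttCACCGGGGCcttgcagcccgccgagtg
The codons spell the motif in 9 of 10 members and not in Ephb6, which is known as a receptor without kinase activity. The same is known of Epha10, which is no member and does not spell it either. Against Ephb2, 35 of 36 bases were identical in Ephb3 and 20 of 36 in Ephb6. Over whole coding sequences, Ephb1 and Ephb2 were the closest pair of members, with 72.6% identical bases, and Epha6 and Ephb6 the most distant, with 51.7%. No stretch of 40 bases of any member's transcripts was found in another member, and at most 0.193% of such stretches, in Ephb3, were found in any other protein-coding gene. Without knowledge of strand in the counting, reads cannot be assigned for 107 bases of Epha6 exons (2.02%), which overlap the opposite-strand Gm9017, and for 152 bases of Ephb1 exons (2.34%), which overlap Gm17708.

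Total counts ranged from 31247078 to 67155004 per library. Nuak1 was checked first and had 86 to 102 counts in KO and 1612 to 4598 in WT, so every library matched its label. KO1 and WT1 stood apart from the others, at −27.5 and −29.2 on a first principal component that held 51.7% of the variance of the 500 most variable genes, against 1.37 to 22 in the other 6 libraries. Markers of cortical projection neurons were high in both genotypes, with summed levels of 1046 to 1252 CPM (counts scaled to a library total of 1000000) for KO cultures and 993 to 1278 CPM for WT. Interneuron markers summed to 237 to 377 CPM and 212 to 337 CPM, with 7 of 10 higher in KO and a median log2 fold change of 0.17, and markers of astrocytes and radial glia to 1473 to 1934 CPM and 1283 to 1847 CPM. Microglia markers summed to 3.86 to 47.4 CPM for KO and 4.22 to 20.2 CPM for WT, with 7 of 8 tested markers higher in KO, a median log2 fold change of 1.38, and Tmem119 at no more than 3 counts in every library. Endothelial and fibroblast markers summed to 16.6 to 37.7 CPM in KO against 8.73 to 49.25 CPM in WT, with Cldn5 at no more than 3 counts in every library, and oligodendrocyte lineage markers summed to 508 to 611 CPM for KO against 485.5 to 591.5 CPM for WT. Hippocampal markers summed to 114 to 194 CPM and 128 to 167 CPM, with 4 of 6 higher in KO and a median of 0.11. Striatal markers summed to 34.4 to 37.05 CPM in KO, below the 39.8 to 51.6 CPM of WT, without overlap, although only 5 of 8 tested markers were lower in KO and their median log2 fold change was −0.03. The part of these cell types in the results below was not tested.

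Levels of the receptors were compared per exon length, as CPM per kb, which gave an order headed by EphA receptors. Epha5, a receptor for ephrin-As in cortical and hippocampal axons, was the most abundant, with 34.9 ± 2.14 CPM per kb in KO and 46.2 ± 10.8 in WT (SD, n = 4 each). Epha4, which mediates repulsion of corticospinal and other axons, came next with 23.6 ± 0.855 and 28.1 ± 3.51 CPM per kb. The ranges of both over the 8 libraries were separate from each other and from Ephb1, the next in order, the lowest Epha5 value being 32.1 and the highest Epha4 value 31.1 CPM per kb. Exon lengths came from an annotation other than the one used for counting. Whether so small a gap depends on the annotation was not tested. Ephb6, which came after Ephb1, reached 25.2 CPM per kb in WT3, above the lowest Epha4 value of 22.4.

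**Figure D1:**
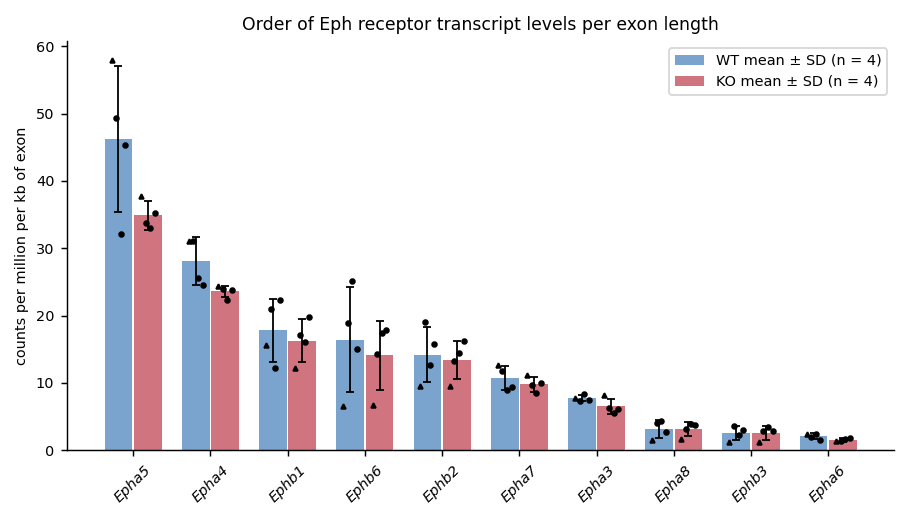
Transcript level of each Eph receptor in CPM per kb of exon (vertical axis), in WT (blue) and KO (red) libraries; bars are means, whiskers SDs (n = 4), points single libraries and triangles KO1 and WT1. Epha5 and Epha4 head the order at 40.6 and 25.8 CPM per kb over all 8 libraries, and Epha6 ends it at 1.82.

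A middle group followed in which neighbours overlapped. Mean levels over all 8 libraries were 17.1 CPM per kb for Ephb1, 15.2 for Ephb6, 13.8 for Ephb2 and 10.3 for Epha7, and the ranges of adjacent genes in this order overlapped. Epha3, at 5.61 to 8.31 CPM per kb, lay below Epha7 and above the last 3 without overlap, but overlapped the range of Ephb6 (6.56 to 25.2). In KO1 and WT1 Ephb6, at 6.79 and 6.56 CPM per kb, was below Epha3, at 8.18 and 7.76, so the place of Ephb6 in the order depends on the library. Epha8, Ephb3 and Epha6 closed the order at 3.14, 2.56 and 1.82 CPM per kb, with overlapping ranges. The order was the same with TMM-scaled values. Among the receptors outside the set, Epha10 had 5.06 CPM per kb, Ephb4 0.73 and Epha2 0.0365, and Epha1 had 2 counts in WT3 and 0 in the other libraries, where 0 allows up to 3 counts. The smallest count of any member was 218, for Epha8 in WT1, which is 6.98 CPM with a 95% Wilson interval of 6.11 to 7.97 CPM for counting error.

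The comparison of KO with WT addressed which receptor transcripts differ in neurons that lack NUAK1. The model held genotype and 1 surrogate variable, a covariate estimated from the counts of the same libraries. That variable was −0.558 in KO1, −0.621 in WT1 and 0.0479 to 0.392 in the others. None of the 10 members passed the adjusted threshold (0 of 10, edgeR quasi-likelihood test with Benjamini-Hochberg adjustment over all tested genes), against 0.0492% of all tested genes. Limma-voom also gave 0 members, against 0.0492% of genes, and DESeq2 gave 1, Epha5, against 1.14% of genes. At an unadjusted p under 0.05, 4 members were lower in KO, namely Epha3, Epha4, Epha5 and Epha6, and 0 were higher, where 5.76% of all tested genes were lower and 4.87% higher by the same rule. The estimate was negative for 9 of 10 members, against 46.2% of all tested genes, and the median log2 fold change was −0.17 for the members and 0.015 for all tested genes. The 4 lowest-p members are all EphA receptors, and no EphB receptor was among them.

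**Figure D2:**
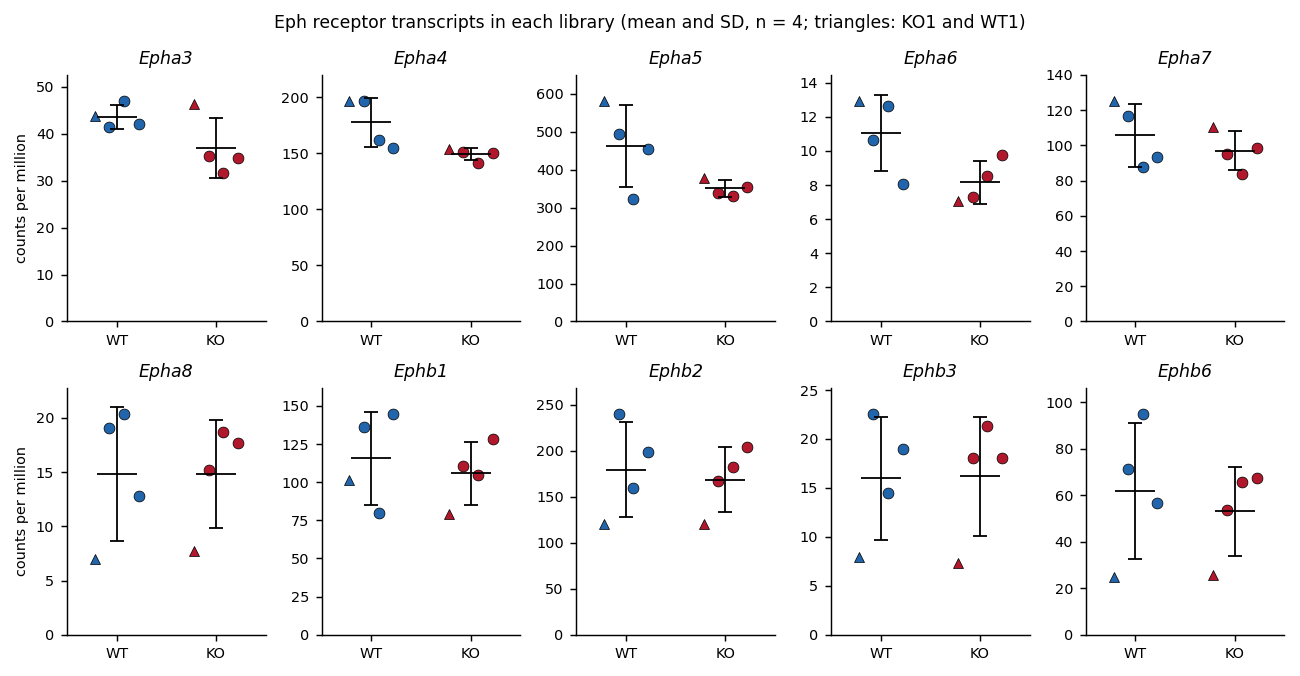
CPM (vertical axes, from 0) of each Eph receptor in 4 WT (blue) and 4 KO (red) libraries, with mean and SD; triangles mark KO1 and WT1. Epha4 values of the genotypes do not overlap, by 154.0 against 155.0 CPM, and those of the other 9 receptors do.

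Epha5 (ENSMUSG00000029245, GRCm38 chromosome 5, 84054761 to 84417818) had 379, 338, 331 and 353.5 CPM in KO1 to KO4 and 581, 495, 322 and 455 CPM in WT1 to WT4. The KO libraries were close together, and 3 WT libraries were above all of them, whereas WT3 was below all of them. The log2 fold change was −0.43 (SE 0.12), a ratio of 0.741, with p 0.0053 and an adjusted p of 0.329 (edgeR). Without WT3 it was −0.56 with an adjusted p of 0.0165, in a fit where 0.554% of genes passed, and with DESeq2 −0.44 with an adjusted p of 0.036. Over the 21 alternatives run it was negative in every one, from −0.57 to −0.33, and its adjusted p ranged from 0.0165 to 1.0.

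Epha4 (ENSMUSG00000026235, chromosome 1, 77367182 to 77515107) had 154.0, 152, 142 and 150.3 CPM in KO and 197, 197, 162 and 155.0 CPM in WT. It was the only member whose genotypes did not overlap, which 0.86% of tested genes showed in this direction. The gap of about 1 CPM closed when libraries were scaled by TMM, with a highest KO value of 153 and a lowest WT value of 152 CPM. The log2 fold change was −0.29 (SE 0.09, p 0.0104, adjusted p 0.365, edgeR), and it stayed between −0.36 and −0.21 in the 21 alternatives, with adjusted p from 0.144 to 1.0.

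Epha6 (ENSMUSG00000055540, chromosome 16, 59641433 to 60610911), the least abundant member, had 7.07, 7.28, 8.54 and 9.79 CPM in KO and 12.9, 10.6, 12.6 and 8.06 CPM in WT. WT1 to WT3 were above every KO library, and WT4 lay among them. Its log2 fold change of −0.47 (SE 0.18, p 0.0237, adjusted p 0.406, edgeR) was the largest of the members in size. It was −0.23 without WT1. When strain entered the model, leaving KO4, WT2 and WT4 to carry the genotype effect, it was 0.042, and 1 member, Epha5, was lower at an unadjusted p under 0.05, against 1.43% of genes.

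Epha3 (ENSMUSG00000052504, chromosome 16, 63543532 to 63864175), a receptor with high affinity for ephrin-A5, had 46.3, 35.2, 31.7 and 34.95 CPM in KO and 43.9, 41.5, 47.0 and 42.0 CPM in WT. KO2, KO3 and KO4 were below every WT library, and KO1 was above all but WT3. The log2 fold change was −0.29 (SE 0.10, p 0.0145, adjusted p 0.369, edgeR). Without both KO1 and WT1, in a fit that also had no surrogate variable, it was −0.39 (SE 0.09, p 0.00238, adjusted p 0.98, edgeR). Epha3 was then the only member with an unadjusted p under 0.05, where 2.45% of tested genes were lower in KO by this rule.

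Epha7 (ENSMUSG00000028289, chromosome 4, 28813066 to 28967503), a repulsive receptor with truncated isoforms that lack the kinase domain, had 83.9 to 110.4 CPM in KO against 87.9 to 125 CPM in WT. The ranges largely overlapped, and the log2 fold change was −0.17 (SE 0.10, p 0.132, adjusted p 0.578, edgeR). It was −0.07 without WT2 and −0.06 on lane A alone. Gene-level counts do not separate the isoforms. Epha8 (ENSMUSG00000028661, chromosome 4, 136929419 to 136956859) ranged from 7.73 to 18.7 CPM in KO and from 6.98 to 20.3 CPM in WT. Its estimate of 0.032 (SE 0.12, adjusted p 0.945, edgeR) was the only positive one among the members.

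Ephb1 (ENSMUSG00000032537, chromosome 9, 101922128 to 102354693), known for guiding callosal and retinal axons, had 78.95, 111, 105 and 128 CPM in KO and 102, 136, 79.7 and 144.5 CPM in WT. High and low libraries were mixed within each genotype, with KO1 and WT3 the lowest. The log2 fold change was −0.17 (SE 0.20, p 0.412, adjusted p 0.788, edgeR). It was −0.38 without WT3 (p 0.000384, adjusted p 0.0539, edgeR) and −0.06 without KO1. Ephb2 (ENSMUSG00000028664, chromosome 4, 136647536 to 136836326), which takes part in synapse formation and binds NMDA receptors, ranged from 121 to 204.5 CPM in KO and from 121 to 239.5 CPM in WT. Its estimated difference on the log2 scale was −0.12 (SE 0.15, adjusted p 0.824, edgeR).

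Ephb3 (ENSMUSG00000005958, chromosome 16, 21204620 to 21223309), which acts with Ephb2 in the formation of the corpus callosum, ranged from 7.30 to 21.3 CPM in KO and from 7.94 to 22.5 CPM in WT. The estimate for Ephb3, −0.015 on the log2 scale (SE 0.21, adjusted p 0.988, edgeR), had a sign that differed among alternatives. The kinase-inactive Ephb6 (ENSMUSG00000029869, chromosome 6, 41603834 to 41620509) had 25.6, 53.7, 65.6 and 67.45 CPM in KO and 24.7, 71.4, 94.9 and 56.8 CPM in WT. KO1 and WT1 were the lowest of their genotypes and within 1 CPM of each other. The log2 fold change of Ephb6 was −0.15 (SE 0.08, p 0.074, adjusted p 0.511, edgeR). It was −0.26 without the surrogate variable (SE 0.40, p 0.539, edgeR) and −0.29 when both KO1 and WT1 were left out as well (SE 0.18, p 0.153, edgeR).

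The lanes, each fitted without a surrogate variable, gave different estimates. On lane B alone, Epha5 was lower in KO with 338 and 331 against 495 and 455 CPM (−0.57 on the log2 scale, SE 0.10, adjusted p 0.032, edgeR), and Ephb1 with 111 and 105 against 136 and 144.5 CPM (−0.45, SE 0.08, adjusted p 0.036, edgeR). These 2 of 10 members passed the adjusted threshold there, as did 0.588% of the genes tested on that lane. At an unadjusted p under 0.05, 5 members were lower on lane B, namely Epha3, Epha4, Epha5, Ephb1 and Ephb2, against 5.6% of genes. On lane A alone, which holds KO1 and WT1, 0 members passed the adjusted threshold in edgeR and 0 had an unadjusted p under 0.05, against 0.0% and 0.591% of genes in either direction. Ephb1, Ephb2 and Ephb3 were then estimated above WT, at 0.17 (SE 0.34, p 0.643), 0.20 (SE 0.34, p 0.577) and 0.17 (SE 0.565, p 0.779, edgeR). Each of these estimates was smaller than its SE.

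**Figure D3:**
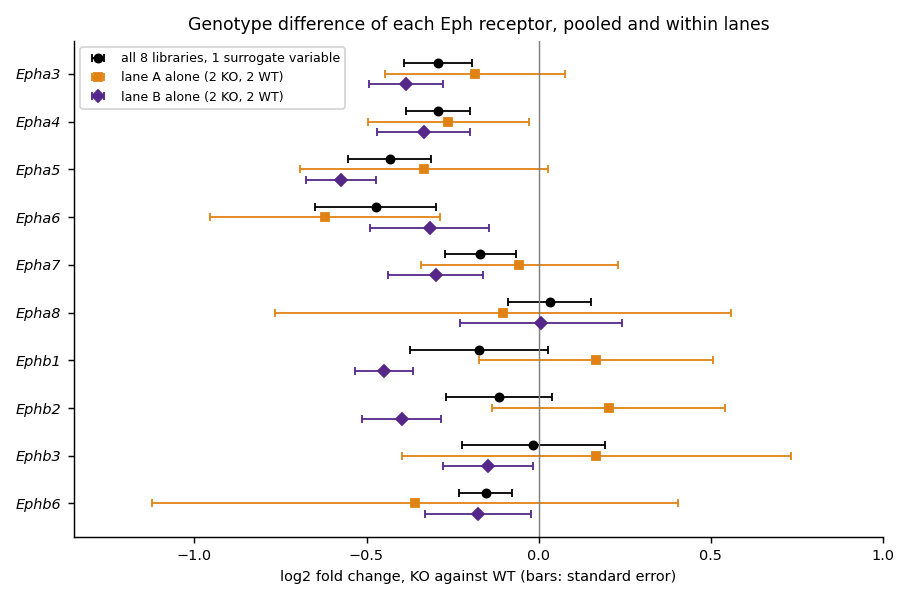
Log2 fold change of KO against WT (horizontal axis, bars are standard errors) of each Eph receptor in the fit of all 8 libraries (black circles), on lane A alone (orange squares) and on lane B alone (purple diamonds). The lane fits held no surrogate variable. Epha3 to Epha7 lie left of 0 in all 3 fits, whereas Ephb1, Ephb2 and Ephb3 lie right of it on lane A and left of it on lane B. The lane A bars of Ephb1, Ephb2 and Ephb3 reach past 0.

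The difference between lanes was tested as an interaction of genotype and lane, without a surrogate variable. It did not pass for any member (0 of 10, edgeR quasi-likelihood test with Benjamini-Hochberg adjustment, 0 at an unadjusted p under 0.05 as well), against 0.0% of all tested genes past the adjusted threshold and 1.57% at the unadjusted one. The interaction estimate was −0.61 (SE 0.36, p 0.131) for Ephb1 and −0.59 (SE 0.40, p 0.18) for Ephb2. Those of the other members had p of 0.426 or more.

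Beyond genotype, the members fell into different profiles across libraries, in an order that went with base composition. Ordered by the GC content of their longest coding sequence, Epha7, Epha3, Epha5, Epha6 and Epha4 had 47.2% to 51.3%, Ephb1 53.6%, and Ephb2, Ephb3, Ephb6 and Epha8 57.5% to 62.1%. In KO1 the CPM of the last 4 was 0.382 to 0.653 times the mean of the other KO libraries, and in WT1 it was 0.333 to 0.606 times the mean of the other WT libraries. For the 5 GC-poor EphA genes the same ratios were 0.828 to 1.36 in KO1 and 1.01 to 1.37 in WT1, and for Ephb1 they were 0.689 and 0.846. Epha8 was thus low in KO1 and WT1 as Ephb3 and Ephb6 were, and less so Ephb2. Ephb1 was nearly as low as Ephb2 in KO1, and only in WT1 did their ratios stand apart.

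**Figure D4:**
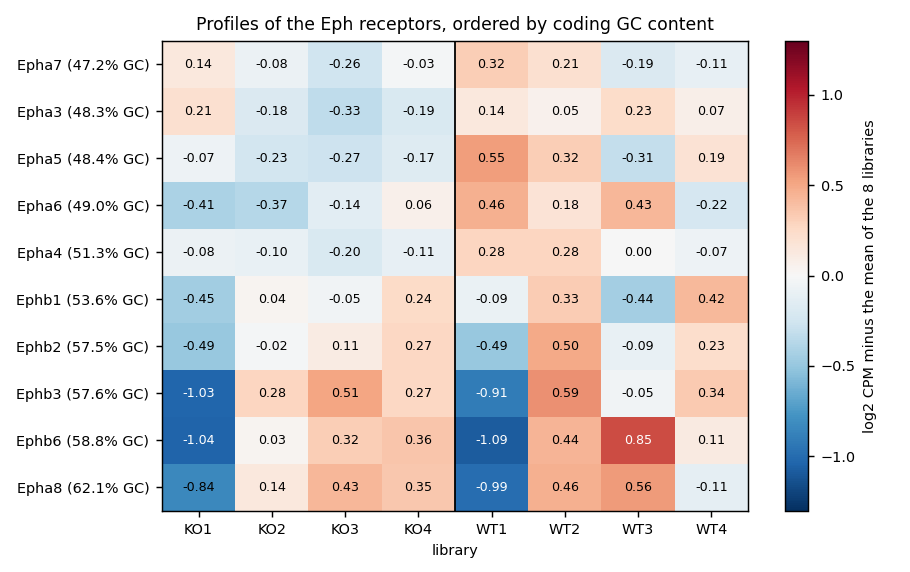
Log2 CPM of each Eph receptor (rows, ordered by coding GC content) in each library (columns) minus the mean over the 8 libraries; red is above and blue below that mean. In KO1 and WT1 the values of Ephb3, Ephb6 and Epha8 range from −1.09 to −0.84, while the lowest value of these genes in any other library is −0.114.

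Medians over tested genes went in the same order. Among the 13636 (83.8%) with a coding sequence in the annotation, split into 3 parts of equal size by coding GC, the median ratios in KO1 and WT1 were 1.21 and 1.21 below 49.9% GC, 0.903 and 0.902 up to 55.9%, and 0.626 and 0.599 above. Base composition was thus a property that moved with the outlying pair in the receptors and in the genes at large, and its part in their levels was not tested.

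Gene length was a second property that the EphA genes with low p shared. Epha3, Epha4, Epha5 and Epha6 span 148 to 952 kb in the GENCODE M1 annotation, as do Epha7, Ephb1 and Ephb2 with 154, 433 and 188 kb, whereas Ephb3, Ephb6 and Epha8 span 15.0 to 27.4 kb. Among all tested genes of 140 kb or longer, 14.1% were lower in KO at an unadjusted p under 0.05 and the median log2 fold change was −0.06, against 3.19% and 0.045 in genes under 30 kb. In the 577 genes that were both that long and in the lowest GC part, to which Epha3, Epha5, Epha6 and Epha7 belong, 18.9% were lower by that rule with a median of −0.09. These cut-offs were chosen with the members' values known. The estimates for Epha3, Epha5, Epha6 and Epha7 were −0.29, −0.43, −0.47 and −0.17, and the part of length and base composition in them was not tested.

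The share of EphA in the summed CPM per kb of the members was 58.7% to 62.8% in 6 libraries, and 74.0% in KO1 and 77.4% in WT1. The summed EphA level was 75.0 to 84.5 CPM per kb in KO and 81.6 to 113 in WT, so the highest KO library, KO1, was above the lowest WT library, WT3. The EphB sums, 29.7 to 56.7 and 33.1 to 62.5 CPM per kb, overlapped throughout.

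Likeness of profiles was measured as the root mean square difference of centred log2(CPM + 1) over the 8 libraries, given as a description. Among members, Epha4 and Epha7 were the most alike at 0.11, and Epha5 and Ephb6 the least at 0.827. Epha8 and Ephb6 were each other's nearest member, at 0.177. Outside the family, the tested gene nearest to Epha5 was Nrcam, a cell adhesion molecule of axons, at 0.0682. For Epha3 it was the potassium channel gene Kcnh8 (0.0501), for Epha6 Lmo7 (0.107), for Epha7 Tmeff1 (0.0604), and for Epha4 ENSMUSG00000110895 (0.0371), which had no symbol in the tables used. Ephb1 was nearest to the kainate receptor gene Grik3 (0.0923), Ephb2 to Tsku (0.0881), Ephb3 to Galnt9 (0.0909), Epha8 to Tmem203 (0.0775), and Ephb6 to Eef1a2, a translation elongation factor of mature neurons (0.0628).

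The ligands and partners of the receptors were read from fixed lists. All 8 ephrin genes were tested, 0 passed the adjusted threshold or an unadjusted p under 0.05 (edgeR), which 0.0492% and 10.6% of all tested genes passed, and 4 estimates were positive and 4 negative, with a median of −0.008. Efnb3 and Efnb2, ligands of EphB receptors and Epha4, had the highest CPM, with 339 to 448 in KO and 298 to 434 in WT for Efnb3 and 199 to 227 and 206 to 244 for Efnb2. Efna5, a ligand of Epha3, Epha4 and Epha5, had 32.9, 19.7, 18.4 and 13.25 CPM in KO and 21.6, 17.3, 24.65 and 16.7 CPM in WT, and KO1 was the highest of all libraries.

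Of 27 listed signalling partners, 26 were tested and 0 passed the adjusted threshold (edgeR), with 13 estimates in each direction and a median of −0.001. At an unadjusted p under 0.05, 1 of 26 was lower and 1 higher, near the share of all tested genes (5.76% and 4.87%). Both are named because they met this threshold. The lower one was Kalrn, which encodes a guanine nucleotide exchange factor that acts downstream of EphB receptors in dendritic spines, with 122, 139.5, 150.2 and 166 CPM in KO and 146, 177, 195 and 176 CPM in WT (log2 fold change −0.29, SE 0.06, p 0.00101, adjusted p 0.235, edgeR). The higher one was Chn1, which encodes a Rac inhibitor needed for Epha4 signalling in axons. Its 4 KO libraries, at 72.0 to 77.9 CPM, were above the 4 WT libraries, at 61.0 to 66.5 CPM, a separation that 1.54% of tested genes showed in this direction, and its log2 fold change was 0.18 (SE 0.06, p 0.0162, adjusted p 0.38, edgeR). Of the 4 receptors outside the set, only Epha10 and Ephb4 were tested, at −0.33 (SE 0.19, adjusted p 0.555) and 0.040 (SE 0.25, adjusted p 0.968, edgeR).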

How the data were processed

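The authors deposited unnormalized counts of reads for each Ensembl gene. They had trimmed adapters (Cutadapt 1.10), removed ribosomal RNA reads, aligned to mm10 (GRCm38) by STAR 2.5.3a, and counted unique alignments by HTSeq-count 0.6.1p1 in union mode. Whether counting used strand is not given in the sources used here, and read length is given differently in the labels and the study's methods. Tests used edgeR 4.0.16 under R 4.3.3: filterByExpr by genotype, TMM scaling, a robust quasi-likelihood test of genotype with 1 surrogate variable (svaseq, sva 3.50.0), following the study's use of surrogate variables, and Benjamini-Hochberg adjustment over all tested genes at 0.05. Standard errors are the log2 fold change divided by the square root of F. DESeq2 1.42.0, limma-voom (limma 3.58.1) and other designs were alternatives. Fits with a lane, strain or replicate term, on 1 lane, without both KO1 and WT1, or of the interaction held no surrogate variable. The procedure was also run on simulated data, with planted changes larger than any receptor estimate and no outlying pair. That run cannot decide how the procedure performs on differences of the receptors' size.

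Of 32726 identifiers, 23260 had a symbol. Gene positions come from RefSeq (GRCm38). Exon lengths, gene spans, coding GC and coding stretches come from GENCODE M1 (NCBIM37), from which no coordinates are printed. The authors counted reads on a different, later Ensembl annotation. Sequences were aligned with Biopython 1.88. Members, gene lists and tests were chosen with earlier results of these data known. All 10 members were named, plus partners at an unadjusted p under 0.05 and, per member, the nearest gene outside the family. The methods give 4 animals per genotype. P-values measure the spread between these libraries, in the main fit only the part left after the surrogate variable estimated from them. Whether libraries with the same strain label came from the same litter is not given in the sources used here. Intervals cover counting error only.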

Additional observations from a re-analysis of the deposited data

How the results depend on the processing

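Over 21 alternatives, the median log2 fold change of the 10 receptors was −0.172 as reported and stayed negative, from −0.326 on lane B alone to −0.1 without WT2. Each moved from −0.172 by less than 0.196, the SD between replicates of the members' median centred log2(CPM + 1). The reported median was itself smaller in size than that SD. The number of members past the adjusted threshold was 1 with DESeq2, 2 on lane B alone, and 0 to 1 when each library was left out (1 without WT3). The number lower at an unadjusted p under 0.05 was 3 without a surrogate variable (1.65% of genes) and 3 with 2 of them (6.43% of genes). It was 1 with the strain label as a term, 0 on lane A alone and 1 without both KO1 and WT1. It was 2 to 5 when each library was left out (2 without WT1, where 2.99% of genes were lower, and 5 without WT3 or WT4, where 8.63% and 6.29% were). Of the 4 members below that threshold, Epha3 was lost without KO3, Epha4 without WT1, and Epha6 without KO1, KO2, WT1 or WT3. Epha3 was also lost without a surrogate variable (p 0.0731, edgeR), and Epha6 with 2 of them (−0.31, p 0.0817, edgeR). Of all tested genes, 8 passed as reported, 4 without a surrogate variable, with 2 of them or with lane as a term, 1 with the strain label, 45 without a filter on low counts, 186 with DESeq2, 0 on lane A, 99 on lane B, 3 without both KO1 and WT1, and 3 to 91 when each library was left out (91 without WT3). The interaction with lane gave 30 genes, none of them a member, without the filter, where Ephb1 and Ephb2 had unadjusted p of 0.0349 and 0.0341. Some signs changed. Epha8 was −0.037 without a surrogate variable, −0.044 with lane as a term, −0.104 on lane A and −0.056 without both KO1 and WT1. Ephb3 was 0.014 with lane as a term, 0.048 with limma-voom and 0.168 on lane A, where Ephb1 was 0.168 and Ephb2 0.203. With the strain label as a term Epha6 was 0.042 and Ephb6 0.052. Ephb6 was −0.265 with lane as a term. With 1 library left out, Ephb1 ranged from −0.375 (without WT3) to −0.058 (without KO1), Epha7 from −0.235 to −0.067, Epha6 from −0.608 to −0.228, Epha8 ranged from −0.053 to 0.138, Ephb2 from −0.25 to 0.033 and Ephb3 from −0.204 to 0.145. The causes were not tested.

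Replicate numbers did not pair the libraries: deviations of same-numbered libraries correlated at 0.8, 0.013, 0.249 and 0.00321, and of the KO libraries only KO1 correlated best with its own number. With the replicate block 3 genes and 0 members passed, 4 members were lower at an unadjusted p under 0.05 (4.38% of genes), and Epha8 was −0.001.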
